A study of Mus musculus with 20 samples.

Results

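Tight junctions seal the epithelium that lines the utricle, the otolith organ of the inner ear that senses linear acceleration and gravity. The 9 genes described here were chosen by name: the claudin genes *Cldn3*, *Cldn6*, *Cldn9*, *Cldn11* and *Cldn14*, the scaffold gene *Tjp1*, and *Ocln*, *Marveld2* and *Ildr1*, whose products lie along the junction or at its corners. They are 9 of 25655 genes in the deposited tables, and each of the 9 had counts in at least 1 library.

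RNA of utricles from C57BL/6J female mice was sequenced in 4 groups of 5 libraries. The mice were operated on at 8 weeks of age, and the utricles were taken 4 weeks later. The sham + v group kept its ovaries and carried a vehicle pellet. In the other 3 groups the ovaries were removed (OVX), and the pellet under the skin held vehicle (OVX + v), estradiol at 50 µg over 60 days (OVX + E2) or raloxifene at 2.4 mg over 60 days (OVX + RAL). Raloxifene is a selective estrogen receptor modulator. Every mouse thus had an operation and a pellet, and no group without an operation was included. The labels do not say how many animals made up a library, so that the p-values measure the spread between these libraries.

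Claudins are 4-pass membrane proteins whose extracellular loops meet those of the next cell and set which ions may pass between cells. Tjp1 binds claudins from inside the cell and ties them to actin, while Marveld2 and Ildr1 gather where 3 cells meet. In the inner ear these seals keep potassium-rich endolymph on the apical side of the sensory cells, and loss of *Cldn9*, *Cldn11*, *Cldn14*, *Marveld2*, *Ildr1* or *Ocln* is known to impair hearing in mice.

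The 5 claudin genes share a short signature in the first extracellular loop, shown here because it is what places them in 1 family and because it sets the most alike pair apart. The stretches were read from the GRCm39 genome within coding exons, on the strand of each gene, with the codons of the glycine-leucine-tryptophan motif and of the 2 conserved cysteines in capitals. They lie at chr5:135015431-135015490 on the plus strand (*Cldn3*), chr17:23900173-23900232 on the plus strand (*Cldn6*), chr17:23902429-23902488 on the minus strand (*Cldn9*), chr3:31204440-31204496 on the plus strand (*Cldn11*) and chr16:93716650-93716709 on the minus strand (*Cldn14*).
Cldn3: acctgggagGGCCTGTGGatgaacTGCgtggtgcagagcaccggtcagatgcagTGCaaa
Cldn6: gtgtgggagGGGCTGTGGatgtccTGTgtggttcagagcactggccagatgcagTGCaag
Cldn9: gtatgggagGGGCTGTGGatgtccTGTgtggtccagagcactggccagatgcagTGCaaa
Cldn11: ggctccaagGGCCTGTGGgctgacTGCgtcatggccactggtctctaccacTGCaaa
Cldn14: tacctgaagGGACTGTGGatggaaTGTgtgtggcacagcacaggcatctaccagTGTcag
*Cldn6* and *Cldn9* were identical at 57 of the 60 bases of this stretch and at 73.3% of their aligned coding bases. For the other 9 pairs the coding identity lay between 50.7% (*Cldn6* and *Cldn11*) and 68.0% (*Cldn3* and *Cldn9*).

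*Cldn6* (chr17:23898223-23901420, plus strand) and *Cldn9* (chr17:23901558-23903000, minus strand) are also neighbours whose 3′ ends face each other. The 137 bases between the annotated ends, chr17:23901421-23901557, are shown on the plus strand because the reads came from 3′ ends.
Between Cldn6 and Cldn9: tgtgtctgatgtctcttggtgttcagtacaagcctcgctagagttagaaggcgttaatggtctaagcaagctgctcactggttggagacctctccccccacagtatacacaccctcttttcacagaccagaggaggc
The letters AATAAA and ATTAAA of the usual polyadenylation signals occurred 0 times in it on either strand. No pair of the 9 genes shared a window of 63 nucleotides, the longest read left after trimming, in the last 400 nucleotides of their transcripts. Reads down to 20 nucleotides were kept, and shorter windows were not compared. How the authors' counting treated strand is not given in the sources used here, so that a read past 1 of these ends could have been counted on the other gene.

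*Ocln* (chr13:100633015-100689226, minus strand) and *Marveld2* (chr13:100732465-100753479, minus strand) are both on chromosome 13, and *Cldn14* and *Ildr1* are both on chromosome 16. *Cldn3* (chr5:135015068-135016326, plus strand) and *Cldn9* have 1 exon each. *Cldn11* lies at chr3:31204069-31218473 on the plus strand, and *Cldn14* at chr16:93715919-93809696 on the minus strand. *Tjp1* (chr7:64945913-65177529, minus strand) has 27 exons in its main transcript and overlaps 2 predicted genes on the same strand, *Gm44794* and *Gm44792*. *Ildr1* lies at chr16:36514340-36547166 on the plus strand. A later annotation of the same genome, GENCODE vM39, places the 3′ end of *Ocln* 2681 bases and that of *Ildr1* 3189 bases further out than the annotation of the files. For the other 7 genes the 2 annotations differed by at most 22 bases there. Of 15747 detected genes found in both, 2958 (18.8%) were extended by over 1000 bases. The part of this in the low counts of *Ocln* and *Ildr1* was not tested.

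The libraries held between 1123053 and 2081747 counts, and the OVX + E2 group had the lowest median, 1324047 (1123053 to 1507667). It also had the lowest median number of genes with a count, 8244 (7427 to 9680). In genes with a count its range lay wholly below those of OVX + v (10004 to 10694) and OVX + RAL (10103 to 10290) and overlapped that of sham + v. In total counts it lay below those of sham + v (from 1507719) and OVX + RAL (from 1702313) and overlapped that of OVX + v. The part of this in the comparisons with OVX + E2 was not tested. Levels are given in CPM, the counts of a gene per 1000000 counts of its library. Since each transcript yields reads from its 3′ end only, CPM was not divided by length, and levels of different genes are compared on that scale. A gene with 3 counts, taken as detected, had between 1.44 and 2.67 CPM. The methods mention no molecular identifiers, and such limits cover counting error only. Markers of the organ were present: *Otog* of the otolithic membrane averaged 2508 CPM over the 20 libraries, *Pou4f3* of hair cells 276 CPM, *Atp1b2* of dark cells 1373 CPM, and *Cdh1* of epithelia 238 CPM. Other tissues were present too, with *Coch* of fibrocytes at 5807 CPM, *Dct* of melanocytes at 765 CPM, *Kdr* of endothelium at 220 CPM, *C1qb* of macrophages at 42.0 CPM and *Myh4* of skeletal muscle at 21.2 CPM. Of the listed markers of supporting and dark cells, *Hes5* and *Atp6v1b1* had 0 counts. In such bulk RNA, fewer cells of a type and less RNA per cell cannot be told apart.

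The 9 genes fell into a high and a low set. *Cldn9* was the most abundant at 332 ± 123 CPM (SD, n = 20 libraries), followed by *Cldn11* at 238 ± 73.9, *Cldn3* at 135 ± 72.3 and *Tjp1* at 111 ± 45.9. These 4 made up 89.2% of the summed mean level and had counts in each of the 20 libraries. Then came *Ildr1* at 37.0 ± 42.0 CPM, *Marveld2* at 17.98 ± 24.2, *Cldn6* at 17.5 ± 22.5, *Cldn14* at 13.6 ± 14.5 and *Ocln* at 12.3 ± 17.3. Neighbours in this order overlapped in their ranges over the 20 libraries. Within single groups they also overlapped, except for *Cldn11* above *Tjp1* in the OVX + v group. *Cldn9* was the highest of the 9 in 12 libraries, *Cldn11* in 7 and *Cldn3* in 1. The sum over the 9 genes lay between 678 and 1324 CPM, with a median of 880 CPM for sham + v, 926 for OVX + v, 914 for OVX + E2 and 1007 for OVX + RAL.

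Removal of the ovaries was examined by comparing the sham + v with the OVX + v group, and the hormone pellets by comparing the OVX + E2 and OVX + RAL groups with the same OVX + v libraries. The last comparison set the OVX + E2 against the OVX + RAL group. All 9 genes had at least 10 counts in the libraries of each comparison and were tested. With edgeR's quasi-likelihood test and Benjamini-Hochberg adjustment over all genes, 0 of the 9 passed an adjusted p of 0.05 in any of the 4 comparisons. Beside this, 0.0145% of 13825 genes passed between sham + v and OVX + v, 0.0584% of 13695 between OVX + E2 and OVX + v, 0.0286% of 14002 between OVX + RAL and OVX + v, and 0.0727% of 13753 between OVX + E2 and OVX + RAL. At those shares a list of 9 genes holding 0 calls is near the background. The unadjusted p of edgeR was under 0.05 for 0 of the 9 in each comparison, beside 12.5%, 13.9%, 12.1% and 14.1% of all genes tested. DESeq2 gave 2, 1, 1 and 0 genes with an unadjusted p under 0.05 in the 4 comparisons, and limma on log2(CPM + 1) gave 1, 0, 1 and 0, but none of these passed after adjustment. Of all genes tested, 4.95%, 5.24%, 5.05% and 5.64% had such a p by DESeq2 and 4.27%, 5.46%, 4.57% and 5.69% by limma, so that over 9 genes the counts are too small to be set apart from these shares. Those of DESeq2 were *Cldn11* and *Ocln*, then *Cldn6*, then *Tjp1*, and those of limma were *Cldn11* and *Tjp1*. Between sham + v and OVX + v the adjusted p of *Ocln* was NA in DESeq2. The median log2 fold change of the 9 genes was -0.11, -0.25, -0.00 and -0.29 in the same order, beside -0.02, -0.06, -0.03 and -0.01 for all genes tested.

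**Figure D1:**
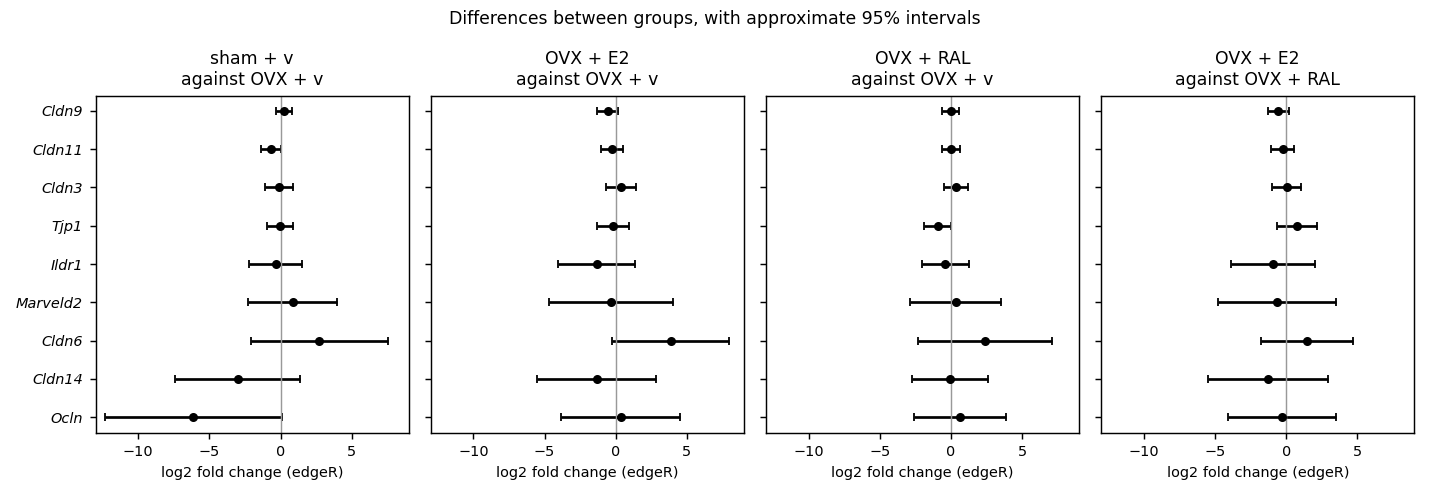
Log2 fold change of each of the 9 genes (horizontal axis) in the 4 comparisons, from edgeR, with approximate 95% intervals (lines), the genes ordered from the highest (top) to the lowest mean level. The intervals of the 4 abundant genes are the narrow ones, and each of the 36 intervals takes in 0.

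*Cldn9* encodes a claudin of the reticular lamina of the inner ear, known to guard hair cells against potassium leaking to their sides. Its level was 233, 383, 622, 305 and 491 CPM in the 5 sham + v libraries, and 390, 381, 213, 446 and 311 CPM in the OVX + v libraries. It was 245, 151, 269, 263 and 239 CPM in the OVX + E2 libraries, and 190, 249, 474, 305 and 488 CPM in the OVX + RAL libraries. The OVX + E2 group held the lowest single value and the smallest spread, and all 4 groups overlapped. Its mean ± SD (n = 5) was 407 ± 154 CPM with sham + v, 348 ± 89.4 with OVX + v, 233 ± 47.7 with OVX + E2 and 341 ± 134 with OVX + RAL. Against OVX + v, the OVX + E2 group differed by a log2 fold change of -0.58 (SE 0.37), with an adjusted p of 0.668 by edgeR. The approximate 95% interval, the fold change with its standard error times the normal quantile on either side, ran from -1.30 to 0.15. *Cldn9* differed by 0.22 (SE 0.30) in the sham + v group and by -0.03 (SE 0.30) in the OVX + RAL group, where the intervals ran from -0.36 to 0.81 and from -0.61 to 0.55. The direct difference of OVX + E2 from OVX + RAL was -0.55 (SE 0.39), with an adjusted p of 0.772 by edgeR.

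*Cldn11* encodes the claudin of myelin sheaths and of the basal cell layer of the cochlear stria vascularis. Its level was 247, 77.2, 196, 242 and 98.2 CPM in the sham + v libraries, and 330, 226, 249, 272 and 294 CPM in the OVX + v libraries. It was 222, 190, 272, 271 and 198 CPM in the OVX + E2 libraries, and 389, 287, 153, 305 and 233 CPM in the OVX + RAL libraries. The sham + v libraries held the 2 lowest values, 77.2 and 98.2 CPM, yet their upper values reached into the range of the OVX + v group. Its mean ± SD (n = 5) was 172 ± 79.9 CPM with sham + v, 274 ± 40.3 with OVX + v, 231 ± 38.9 with OVX + E2 and 274 ± 87.6 with OVX + RAL. The log2 fold change of the sham + v group against OVX + v was -0.67 (SE 0.37, interval -1.39 to 0.05), with an adjusted p of 0.511 by edgeR. Beside it, the 7 fibroblast markers summed to 4968 to 10374 CPM (median 5429) in the sham + v group and 6573 to 9025 CPM (median 7294) in the OVX + v group, and their part in the difference was not tested. These sums are mostly *Coch*, at means of 5252 and 6457 CPM, while *Col1a1* had the higher mean with sham + v (67.9 against 30.1 CPM). Of the oligodendrocyte markers, *Mog* and *Opalin* had 0 counts and *Mobp* had 1 in the 20 libraries together, and the highest of that list, *Mag*, which Schwann cells also make, averaged 38.5 CPM. For OVX + E2 against OVX + v the log2 fold change of *Cldn11* was -0.25 (SE 0.40). For OVX + RAL it was -0.00 (SE 0.32, interval -0.62 to 0.61), and its sign turned with TMM factors and with DESeq2.

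*Cldn3* encodes a sealing claudin common in simple epithelia. Its level was 67.2, 39.9, 222, 121 and 108 CPM in the sham + v libraries, and 188, 77.8, 29.5, 173 and 135 CPM in the OVX + v libraries. It was 267, 108, 219, 93.5 and 91.2 CPM in the OVX + E2 libraries, and 29.3, 102, 190, 208 and 231 CPM in the OVX + RAL libraries. The 4 groups overlapped, and the lowest OVX + E2 library, at 91.2 CPM, was above the lowest of each other group (29.3 to 39.9 CPM). Its mean ± SD (n = 5) was 112 ± 69.8 CPM with sham + v, 121 ± 66.3 with OVX + v, 156 ± 81.5 with OVX + E2 and 152 ± 84.2 with OVX + RAL. Against OVX + v, the log2 fold change of *Cldn3* was -0.11 (SE 0.50) for sham + v, 0.37 (SE 0.55) for OVX + E2 and 0.33 (SE 0.43) for OVX + RAL. The intervals reached from -1.08 to 0.86, from -0.71 to 1.44 and from -0.50 to 1.17. With single libraries left out, the value for OVX + E2 ranged from 0.084 to 0.58 and that for OVX + RAL from 0.084 to 0.60.

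*Tjp1* encodes ZO-1, the scaffold under the junctional membrane. Its level was 102, 139, 110, 90.0 and 202 CPM in the sham + v libraries, and 130, 156, 123, 138 and 109 CPM in the OVX + v libraries. It was 69.6, 178, 99.4, 161 and 64.5 CPM in the OVX + E2 libraries, and 81.8, 18.9, 38.2, 127 and 75.9 CPM in the OVX + RAL libraries. In 4 of the 5 OVX + RAL libraries *Tjp1* was below each OVX + v library, and the fifth, at 127 CPM, lay inside their range. Its mean ± SD (n = 5) was 129 ± 44.9 CPM with sham + v, 131 ± 17.6 with OVX + v, 115 ± 52.4 with OVX + E2 and 68.4 ± 42.1 with OVX + RAL. The log2 fold change of the OVX + RAL group against OVX + v was -0.94 (SE 0.49, interval -1.90 to 0.03), with an adjusted p of 0.454 by edgeR. For sham + v it was -0.03 (SE 0.47), and for OVX + E2 it was -0.19 (SE 0.59). OVX + E2 against OVX + RAL gave 0.74 (SE 0.72), with an adjusted p of 0.978 by edgeR.

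*Ildr1* encodes angulin-2, a receptor of tricellular corners, and *Marveld2* encodes tricellulin, the protein drawn to them. *Ildr1* was at 0, 26.8, 135, 9.51 and 27.9 CPM in the sham + v libraries, and at 13.1, 30.1, 18.1, 161 and 28.6 CPM in the OVX + v libraries. It was at 49.7, 0, 25.6, 0 and 23.8 CPM in the OVX + E2 libraries, and at 21.6, 10.2, 57.0, 43.0 and 58.6 CPM in the OVX + RAL libraries. In the sham + v and the OVX + v group 1 library each stood far above the other 4. Against OVX + v, the log2 fold change of *Ildr1* was -0.34 (SE 0.94) for sham + v, -1.34 (SE 1.38) for OVX + E2 and -0.40 (SE 0.83) for OVX + RAL. Without the OVX + v library at 161 CPM the values for sham + v and OVX + RAL turned to 0.82 and 0.76, and that for OVX + E2 was -0.18.

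*Marveld2* was at 24.8, 11.02, 18.4, 80.0 and 0 CPM in the sham + v libraries, and at 0, 27.0, 0, 46.6 and 0 CPM in the OVX + v libraries. It was at 0.663, 57.4, 0, 0.890 and 0 CPM in the OVX + E2 libraries, and at 6.17, 0, 13.5, 59.3 and 13.9 CPM in the OVX + RAL libraries. A single library carried most of the reads in the OVX + E2 group, and *Marveld2* was at 0 in 7 of the 20 libraries. Its log2 fold change against OVX + v was 0.86 (SE 1.59) for sham + v, -0.32 (SE 2.21) for OVX + E2 and 0.33 (SE 1.64) for OVX + RAL. Intervals of these widths, the widest from -4.66 to 4.02, hold changes of many fold in either direction.

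*Ocln* encodes occludin, a regulator of the bicellular junction. It was at 0, 0, 0, 0.559 and 0 CPM in the sham + v libraries, and at 39.2, 0, 0, 13.9 and 11.1 CPM in the OVX + v libraries. It was at 35.2, 0, 0.802, 45.4 and 0 CPM in the OVX + E2 libraries, and at 14.9, 22.6, 52.3, 5.25 and 4.32 CPM in the OVX + RAL libraries. *Ocln* was thus detected in each OVX + RAL library, in 0 of 5 sham + v libraries and in 10 of all 20. The sham + v libraries together held 1 count against 107 in the OVX + v libraries. The ratio of OVX + v to sham + v was 114 per count of library total, with an exact 95% interval of 19.97 to 4531 that covers counting error between pooled libraries only. Of the 107 counts, 63 came from OVX + v replicate 6, and without it the ratio was 57.8 (9.84 to 2332), still over a single sham + v count. Since 2 OVX + v libraries were also at 0, the groups overlapped, and the log2 fold change of -6.13 (SE 3.18) had an adjusted p of 0.424 by edgeR. With so few counts in the sham + v group this fitted value depends on the prior count and is no bound (-7.48 to -5.11 with single libraries left out), and *Ocln* entered the test through the OVX + v libraries. Against OVX + v, *Ocln* differed by 0.34 (SE 2.14) in the OVX + E2 group and by 0.63 (SE 1.64) in the OVX + RAL group.

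*Cldn6* encodes a claudin best known from embryonic epithelia. It was at 27.3, 5.77, 15.4, 29.6 and 5.97 CPM in the sham + v libraries, and at 5.61, 1.25, 5.67, 0 and 0 CPM in the OVX + v libraries. It was at 33.8, 0, 0, 68.6 and 82.8 CPM in the OVX + E2 libraries, and at 16.5, 18.9, 12.9, 4.20 and 14.9 CPM in the OVX + RAL libraries. Every sham + v library was above every OVX + v library, although by 5.77 against 5.67 CPM where they came closest. Of 13825 genes, 0.203% did not overlap in this direction. In the 4 comparisons made, *Cldn6* was the 1 gene of the 9 whose groups did not overlap, and sham + v was not compared with OVX + RAL. For every sham + v library below every OVX + v library the share of genes was 0.297%. For OVX + E2 above and below OVX + v the shares were 0.161% and 0.672%, for OVX + RAL above and below OVX + v 0.264% and 0.314%, and for OVX + E2 above and below OVX + RAL 0.24% and 0.669%. The log2 fold change of *Cldn6* against OVX + v was 2.71 (SE 2.45) for sham + v, with an adjusted p of 1.00 by edgeR. It was 3.84 (SE 2.09, adjusted p 0.431) for OVX + E2 and 2.39 (SE 2.40) for OVX + RAL. These 3 comparisons share the OVX + v libraries, which held 9, 2, 10, 0 and 0 counts of the gene.

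*Cldn14* encodes a claudin of hair cells and supporting cells, required for hearing in mice and humans. It was at 0, 7.35, 4.15, 1.68 and 0 CPM in the sham + v libraries, and at 31.1, 0, 39.7, 1.49 and 37.6 CPM in the OVX + v libraries. It was at 0, 0, 31.3, 11.6 and 0.701 CPM in the OVX + E2 libraries, and at 21.1, 17.8, 15.3, 36.7 and 14.4 CPM in the OVX + RAL libraries. The 5 OVX + RAL libraries lay between 14.4 and 36.7 CPM. The OVX + v libraries fell into 3 at over 31 CPM and 2 at under 2 CPM. Against OVX + v, the log2 fold change of *Cldn14* was -3.02 (SE 2.25) for sham + v, with an adjusted p of 0.935 by edgeR, -1.33 (SE 2.13) for OVX + E2 and -0.06 (SE 1.37) for OVX + RAL. Without the OVX + E2 library at 31.3 CPM the value for that group was -2.82.

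**Figure D2:**
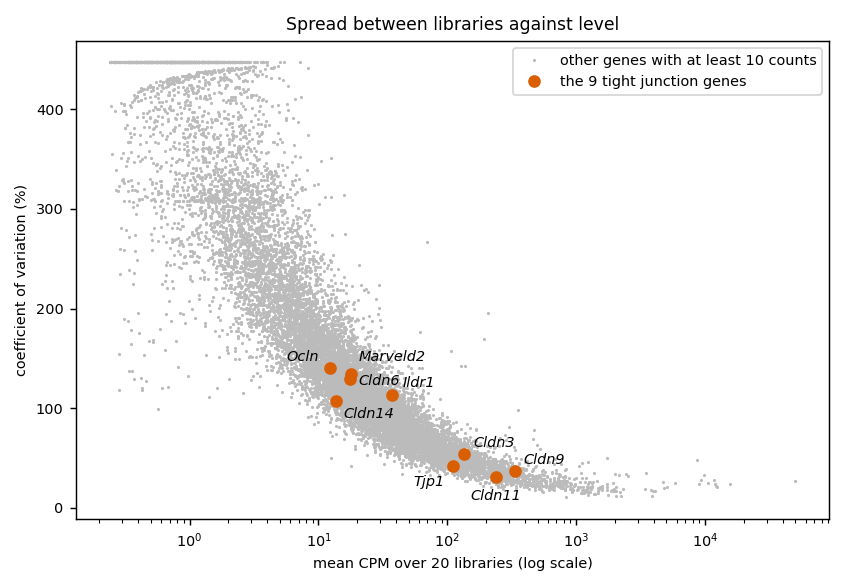
Coefficient of variation over the 20 libraries in percent (vertical axis) against mean CPM on a log scale (horizontal axis) for genes with at least 10 counts (grey) and the 9 tight junction genes (orange). Most orange points lie among the genes of like level, with *Ildr1* at 114%, above the 112% that bounds the lower 90% of its like genes, and *Cldn14* near the lower side at 107%.

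The spread of most of the 9 genes lay inside that of genes at like levels. *Ildr1* had a coefficient of variation of 114% over the 20 libraries, beside a median of 86.9% for 1744 genes within 1.25-fold of its mean, and 8.66% of these varied more. *Tjp1* varied by 41.5%, where 87.7% of 851 like genes varied more, and *Cldn11* by 31.1%, where 79.9% of 339 did. For *Cldn14* the value was 107%, with 89.8% of 1474 like genes above it. *Cldn9* at 36.9%, *Cldn3* at 53.6%, *Cldn6* at 129%, *Marveld2* at 135% and *Ocln* at 140% had between 26.4% and 52.5% of their like genes above them.

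**Figure D3:**
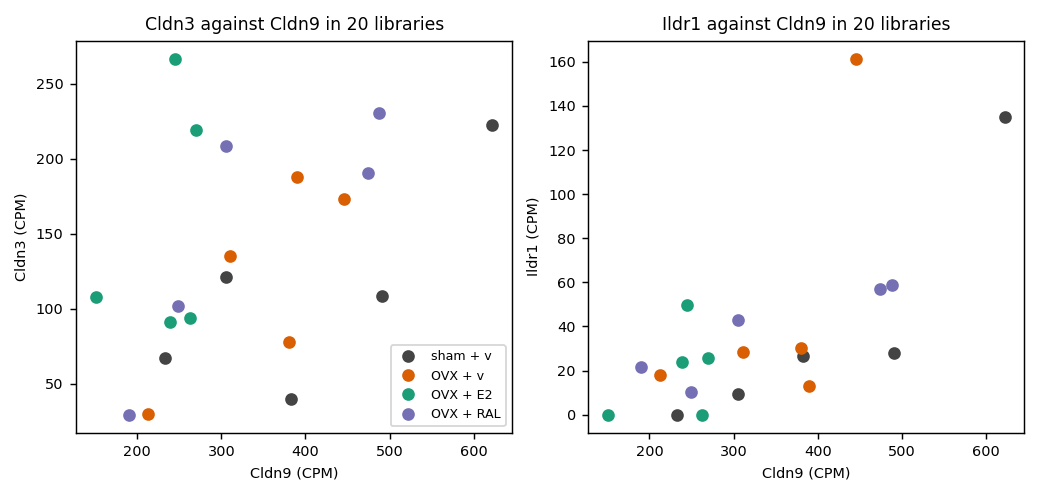
CPM of *Cldn3* (left) and *Ildr1* (right) against CPM of *Cldn9* in the 20 libraries, coloured by group. Libraries with much *Cldn9* tended to have more of both genes, with r = 0.46 and r = 0.65 on the log2(CPM + 1) scale, and the OVX + E2 libraries sit to the left.

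Across libraries, the pair with the highest Pearson's r of log2(CPM + 1), among the 8 genes with a mean of at least 20 counts per library (all but *Ocln*), was *Cldn9* and *Ildr1*. For this pair r was 0.65 and Spearman's rho 0.68 over 20 libraries, and r was 0.65 for deviations from the group means. Without the 2 libraries farthest from the median of *Cldn9* it was 0.47. For *Cldn3* and *Ildr1* it was 0.50 without the 2 farthest from the median of *Cldn3*. For *Cldn11* and *Cldn14* it was 0.49 without the 2 farthest from the median of *Cldn11*. The libraries left out differ between these pairs, so that the 3 values are not ranked. *Cldn3* and *Cldn9* had r = 0.46 and rho = 0.52, with r = 0.70 for deviations from the group means. Without the 2 libraries farthest from the median of *Cldn3* their r was 0.26. For the other 26 pairs of 28, r lay between -0.40 and 0.40. Their rho was highest for *Cldn11* and *Cldn14* (0.62) and *Cldn3* and *Ildr1* (0.58), and lowest for *Cldn6* and *Tjp1* (-0.47). *Cldn6* and *Cldn9*, the neighbours on chromosome 17, had r = -0.06. The libraries share depth and tissue makeup, and these values are descriptions.

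The levels were also set beside the summed marker lists. *Cldn11* went down with the summed hair cell markers (r = -0.61, rho = -0.59) and supporting cell markers (r = -0.56, rho = -0.48), and up with the fibroblast markers (r = 0.57, rho = 0.60) over the 20 libraries. For deviations from the group means the 3 values of r were -0.57, -0.68 and 0.49. *Cldn9* had r = 0.43 with the dark cell markers and -0.38 with the fibroblast markers, and *Cldn14* had r = 0.49 with the epithelial and -0.51 with the hair cell markers. Differences between the genes in these values were not tested, and each list is a sum over genes of the same libraries, in which *Coch* makes up most of the fibroblast, *Otog* of the supporting cell and *Atp1b2* of the dark cell markers.

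The genes whose pattern was most like that of each member were sought among 9027 genes with a mean of at least 20 counts, by Pearson's r over the 20 libraries. For *Cldn9* they were *Uspl1* (0.77), *Pbxip1* (0.73) and *Fahd1* (0.73). For *Cldn3* they were *Rarg* (0.77), *Mfsd6* (0.72) and *Thumpd1* (0.71), and for *Tjp1* they included *Col11a1* (0.74) and *Gabpb2* (0.73). *Cldn11* was nearest to *Gbp7* (0.80), *Clk1* (0.79) and *Pigh* (0.78), but these fell to 0.42, 0.26 and 0.10 without the 2 libraries farthest from its median. In the same way *Col11a1* fell to 0.41 and *Gabpb2* to 0.59 with *Tjp1*, *Thumpd1* to 0.52 with *Cldn3*, *Pacs2* to 0.58 with *Cldn6*, and *Pbxip1* to 0.60 with *Cldn9*. *Cldn14* was nearest to *Ost4* (0.72), *Cemip* (0.72) and *Ccm2* (0.70), and *Cldn6* to *Phlda3* (0.76), *Dnajc2* (0.73) and *Pacs2* (0.70). *Marveld2* was nearest to *Cdo1* (0.74), *Nmi* (0.72) and *Eno1b* (0.71), and *Ildr1* to *Ginm1* (0.79), *Fam8a1* (0.77) and *Eloa* (0.76), although Spearman's rho was 0.50, 0.28 and 0.54 for these 3. None of the genes named here is on the list of tight junction genes. Each was picked for 1 of the 3 highest of 9027 values of r over only 20 libraries. Such a choice can give a high r by itself, and these values are descriptions that were not tested.

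**Figure D4:**
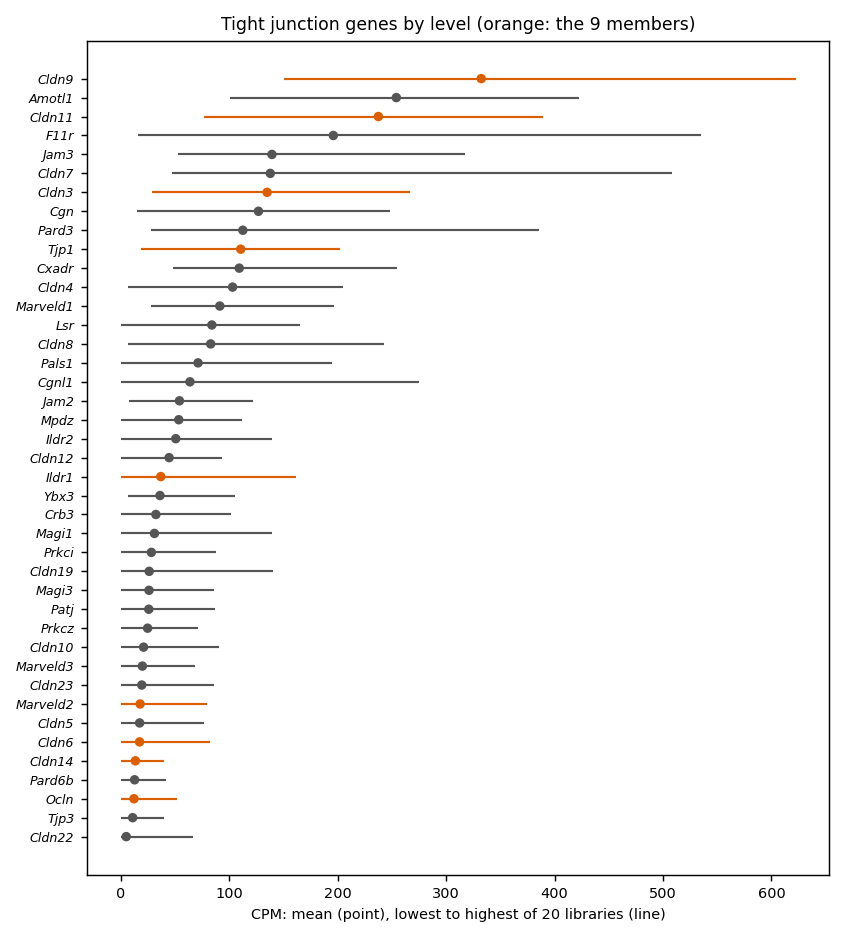
Mean CPM over the 20 libraries (points) and the lowest to highest library (lines) of 41 tight junction genes, the 9 members in orange and 32 others in grey. Those shown have a mean of at least 5 CPM, but not every such gene is shown. *Cldn9* is at the top at 332 CPM and *Ocln*, the lowest member, is near the bottom at 12.3 CPM.

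Among 41 other genes of the tight junction found in the tables, *Amotl1*, which encodes a junctional angiomotin, was the highest at 254 CPM. Others among the highest were the adhesion genes *F11r* (196 CPM) and *Jam3* (139 CPM), *Cldn7* (138 CPM) and the adaptor gene *Cgn* (127 CPM). Over the 20 libraries the mean of *Cldn9* exceeded that of each of the 41, and *Amotl1* alone exceeded *Cldn11*. By group means the order differed: *Amotl1* was above *Cldn9* and *Cldn11* with OVX + E2 (272 against 233 and 231 CPM). *Cldn11*, at 172 CPM, was below *Amotl1* (221), *Cldn7* (202) and *F11r* (175) with sham + v. With OVX + RAL it was at 274 CPM, below *Amotl1* (303) and *F11r* (275). These differences between genes were not tested. Other claudin genes were absent from the counts: *Cldn13*, *Cldn15*, *Cldn16*, *Cldn17*, *Cldn18* and *Cldn24* had 0 counts in the 20 libraries, and *Cldn1*, a main claudin of the epidermis, had 2. Of the 41 genes, 33 were tested between sham + v and OVX + v, 33 between OVX + E2 and OVX + v, 34 between OVX + RAL and OVX + v and 34 between OVX + E2 and OVX + RAL. By edgeR 0 passed in either direction in any of them, and 3, 0, 3 and 2 had an unadjusted p under 0.05, where 12.5%, 13.9%, 12.1% and 14.1% of all genes tested had one. The share depends on the tool: by DESeq2 it was 4.95%, 5.24%, 5.05% and 5.64%, and the 41 genes were not counted by it. The genes with such a p by edgeR were *Cldn7*, *Cldn22* and *Tjp3* in the first comparison, *Cldn2*, *Cldn4* and *Cldn22* in the third, and *Cldn2* and *Cldn22* in the last. They are named after their values were seen. *Cldn2* was detected in 1 library, of the OVX + RAL group, and *Cldn22* in 3, of the OVX + v and OVX + E2 groups. Both had 0 counts in each library of the other groups, so that they entered these tests through the group where they were high, and their p is no evidence of a difference. *Tjp3* had 2 counts in the sham + v libraries together and 154 in the OVX + v libraries. It too entered the test through the group where it was high, and its p is no evidence of a difference. The median log2 fold change of the tested genes was -0.03, -0.09, 0.10 and -0.17 in the 4 comparisons, beside -0.02, -0.06, -0.03 and -0.01 for all genes.

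*Cldn7* was the most abundant of the genes just named. Its mean was 202 ± 183 CPM (SD, n = 5) in the sham + v group and 101 ± 40.4 in the OVX + v group, a log2 fold change of 0.99 (SE 0.43) with an adjusted p of 0.363 by edgeR. A single sham + v library stood at 509 CPM, and without it the log2 fold change was 0.30. *Cldn4* had a mean of 54.4 ± 63.1 CPM in the OVX + RAL group and 122 ± 61.7 in the OVX + v group, a log2 fold change of -1.17 (SE 0.54) with an adjusted p of 0.402 by edgeR. Without the OVX + RAL library at 165 CPM it was -2.19. *Tjp3*, a paralog of *Tjp1*, had means of 0.265 ± 0.593 and 18.04 ± 16.4 CPM in the sham + v and OVX + v groups.

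Since the mucosa of the middle ear also has tight junctions, markers of secretory mucosa were examined. *Bpifa1*, a secreted protein of airway epithelium, ranged from 0 to 1738 CPM over the 20 libraries and was detected in 13. It was the 1 listed marker that passed the test, with a log2 fold change of -3.25 (SE 0.44) between the OVX + E2 and OVX + RAL groups and an adjusted p of 8.1e-10 by edgeR. In the OVX + RAL libraries it was at 349, 143, 143, 1738 and 37.5 CPM. Without the library at 1738 CPM the log2 fold change was -1.74, with an adjusted p of 0.453 by edgeR, so that the call rested on 1 library. Without the OVX + E2 library at 231 CPM it was -6.52, and it still passed. The call was lost too with DESeq2 (adjusted p 0.786), with filterByExpr (adjusted p 1.00) and with robust glmQLFit (adjusted p 0.677), although the log2 fold change stayed at -3.25 in each of the 3. It was kept with TMM factors (-3.40), without a filter on low counts (-3.25), with all 4 groups in 1 fit (-3.25) and with limma on log2(CPM + 1) (-5.15, adjusted p 0.00128). The other 5 listed markers were absent, scarce or differed in the opposite direction. The secretory genes *Scgb1a1* and *Muc5b* had 0 counts, *Bpifb1* had 8 in 1 library, and *Reg3g* was detected in 2 libraries, none of them of the OVX + E2 or OVX + RAL group. *Foxj1*, a regulator of motile cilia, was detected in each of the 20 libraries and averaged 79.5 ± 23.9 CPM (SD, n = 5) with OVX + E2 and 49.9 ± 28.3 with OVX + RAL, a log2 fold change of 0.67 (SE 0.90) that did not pass the test. The 6 markers, mostly *Bpifa1* where the sum was high, summed to between 37.3 and 355 CPM with sham + v, 32.0 and 788 with OVX + v, 58.9 and 338 with OVX + E2, and 126 and 1786 with OVX + RAL. Their part in the levels of the tight junction genes was not tested.

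RefSeq promoters, from 250 bases before to 50 after the start on GRCm38.p6, were found for 8 of the 9 genes, all but *Cldn9*, in 12 windows. They were searched on both strands. The consensus estrogen response element, GGTCA and its reverse complement spaced by 3 bases, occurred in 0 of the 12, beside 0.0700% of 32851 promoters of all genes. The single nuclear receptor site AGGTCA, which also lies within many longer nuclear receptor motifs, occurred in 4 of the 12 windows, those of *Cldn14* and 1 of *Ocln*, beside 16.3% of all. The grainyhead motif AACCGGTT was found in 0 of 12 beside 0.146%, and the GC box GGGCGG in 9 of 12 beside 35.7%. The windows with a GC box were those of *Cldn3*, *Cldn6*, *Cldn11*, *Tjp1*, *Ocln*, *Marveld2* and *Ildr1*. The 2 windows of *Ocln*, the 2 of *Marveld2* and 2 of the 3 of *Cldn14* overlap in part, so that 1 site can count in both. A match describes letters in these windows only.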

How the data were processed

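Groups were taken from the labels, and replicates carry the library numbers 1 to 20. As the methods describe, 3′ mRNA libraries were made from 1 ng of total RNA and read for 75 cycles. The authors removed adaptor and poly(A) sequence, poor bases, the first 12 nucleotides of each read and any read left shorter than 20, then mapped to GRCm39 with annotation release 105, and counted in CLC Genomics Workbench (version not given in the sources used here). The deposited total counts are raw read counts per gene and were the only values used. The deposited CPM, TPM and RPKM columns, and the columns of comparisons (log2 fold changes, p-values and FDR-adjusted p-values), were not used. Of the 3 tables stacked in 1 file the first was used, the OVX + v counts were identical between files, and 0 columns lay outside the series. Of 40 replicate pairs 0 were identical.

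CPM was calculated from library totals. Pairs of groups were compared with the quasi-likelihood test of edgeR 4.0.16 (R 4.3.3) on counts, in fits of the 10 libraries concerned, with total counts as library sizes, genes of at least 10 summed counts and Benjamini-Hochberg adjustment (threshold 0.05). Standard errors were obtained from the F statistic, as fold change (log2) over its root. The pipeline was tested on simulated data. Alternatives were TMM factors, DESeq2 1.42.0, limma 3.58.1 with a pseudocount of 1, no filter, filterByExpr, robust glmQLFit, leaving out each library, and fitting all 4 groups together. Python 3.11.15 (pandas 2.3.3, scipy 1.17.1) was used for the rest. Named were the 9 genes, the 6 other tight junction genes with the highest mean CPM and any that passed, the 3 genes most like each member, and the highest marker of each list. Some genes that this rule selects are not reported here. The members and lists were chosen with earlier results of these data known.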

Additional observations from a re-analysis of the deposited data

Results flagged for a closer look

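In 6 of the 36 groups of 5 values (9 genes in 4 groups), 1 library stood apart from the other 4 by Dixon's test. For normally distributed values chance gives about 1.8 of 36, but these values are skewed and hold zeros, so that the 6 cannot be read as more than chance gives. *Ildr1* reached 135 CPM in sham + v replicate 3 (228 counts), where the next library had 27.9 CPM, and 161 CPM in OVX + v replicate 9 (326 counts), where the next had 30.1 CPM. *Marveld2* reached 57.4 CPM in OVX + E2 replicate 12 (76 counts), where the next had 0.890 CPM, and 59.3 CPM in OVX + RAL replicate 19 (113 counts), where the next had 13.9 CPM. *Cldn9* was low in OVX + E2 replicate 12, at 151 CPM against 239 CPM in the nearest library. *Ocln* had 0.559 CPM, a single count, in sham + v replicate 4 and was at 0 in the other 4 libraries of that group. These are given as values and were not tested further.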

How the results depend on the processing

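Of 606 alternative values of the 36 log2 fold changes, 557 kept their direction, and none passed the threshold (smallest adjusted p 0.383). Members called stayed at 0 in each of 68 alternative fits. DESeq2 gave no adjusted p for *Ocln* between sham + v and OVX + v, and filterByExpr left 6, 7, 9 and 8 of the 9 genes to be tested. No paired analysis was possible because the library numbers run from 1 to 20 and no 2 groups share one.

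The sign turned for OVX + RAL against OVX + v in *Cldn11* (0.049 with TMM, 0.038 with DESeq2) and *Cldn14* (0.99 with limma), for OVX + E2 against OVX + v in *Ocln* (-0.25 with limma), and for OVX + E2 against OVX + RAL in *Cldn3* (-0.11 with TMM) and *Cldn6* (-0.19 with limma). TMM moved the median of all genes from -0.06 to -0.17 for OVX + E2 against OVX + v and from -0.01 to -0.16 for OVX + E2 against OVX + RAL. The cause was not tested.

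With single libraries left out, signs turned within these ranges. For sham + v against OVX + v they were -0.52 to 0.10 (*Cldn3*), -0.25 to 0.078 (*Tjp1*), -0.12 to 1.98 (*Marveld2*, negative without sham + v replicate 4) and -1.65 to 0.82 (*Ildr1*, positive without OVX + v replicate 9). For OVX + E2 against OVX + v they were -0.51 to 1.37 (*Ocln*) and -4.98 to 0.80 (*Marveld2*). For OVX + RAL against OVX + v they were -0.19 to 0.12 (*Cldn9*), -0.17 to 0.15 (*Cldn11*), -0.38 to 0.26 (*Cldn14*), -0.13 to 1.66 (*Ocln*), -0.80 to 1.45 (*Marveld2*) and -0.65 to 0.76 (*Ildr1*). For OVX + E2 against OVX + RAL they were -0.25 to 0.23 (*Cldn3*), -1.14 to 0.46 (*Ocln*) and -5.34 to 0.48 (*Marveld2*).

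Where the sign held, values with a library left out still ranged between -3.85 and -2.70 for *Cldn14* (sham + v), -2.82 and -1.01 for *Cldn14* (OVX + E2) and -2.01 and -0.18 for *Ildr1* (OVX + E2), each against OVX + v. Against OVX + v, *Cldn9* ranged between 0.020 and 0.37 (sham + v) and *Tjp1* between -0.41 and -0.044 (OVX + E2). *Cldn3* ranged between 0.084 and 0.58 (OVX + E2) and between 0.084 and 0.60 (OVX + RAL) against OVX + v. For OVX + E2 against OVX + RAL, *Cldn14* ranged between -2.76 and -0.95 and *Cldn11* between -0.40 and -0.085. Not every such range is given.

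The number of all genes called moved more. Between sham + v and OVX + v it was 2, with 1 under TMM, 12 under DESeq2, 0 under filterByExpr, 4 under limma, 0 under robust glmQLFit and 1 to 10 with a library left out (10 without sham + v replicate 1, and 1 without sham + v replicate 2, OVX + v replicate 7 or OVX + v replicate 10). For OVX + E2 against OVX + v it was 8, with 38 under DESeq2, 1 under filterByExpr, 4 under robust glmQLFit and 6 to 17 (17 without OVX + E2 replicate 11). For OVX + RAL against OVX + v it was 4, with 0 under filterByExpr, 0 under robust glmQLFit and 3 to 11 (11 without OVX + RAL replicate 16, 9 without 20, and 8 without 18 or OVX + v replicate 7). For OVX + E2 against OVX + RAL it was 10, with 42 under DESeq2, 0 under filterByExpr, 6 under robust glmQLFit, 16 with all 4 groups in 1 fit and 8 to 16 (16 without OVX + E2 replicate 11). filterByExpr tested fewer genes, 8354 to 9357.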

Other observations

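Among the other tight junction genes, *Marveld1*, which encodes another MARVEL domain protein, had a mean ± SD (n = 5) of 141 ± 35.7 CPM with sham + v, 80.2 ± 24.2 with OVX + v, 59.2 ± 23.2 with OVX + E2 and 85.7 ± 28.4 with OVX + RAL. Its log2 fold change for sham + v against OVX + v was 0.81 (SE 0.51), with an adjusted p of 0.751 by edgeR. *Lsr* and *Ildr2*, which encode the other angulins, averaged 84.1 and 50.8 CPM over the 20 libraries, both above *Ildr1* at 37.0 CPM. *Marveld1*, *Lsr* and *Ildr2* were chosen for this description after their values were seen.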
